A study of Mus musculus with 6 samples.

Results

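Interferon-stimulated genes are described here in cultured chondrocytes from *Postn*-/- and *wt* mice. The set held 9 genes, *Ifit1*, *Ifit3*, *Isg15*, *Irf7*, *Stat2*, *Oasl2*, *Rsad2*, *Bst2* and *Usp18*, of the 41388 genes in the deposited tables, and the genes were chosen by name as known targets or transducers of interferon. All 9 were detected in every sample and passed the filter on low counts. *Postn* encodes periostin, a matricellular protein of collagen-rich tissues. The study asked whether its loss protects mice from osteoarthritis, and as a further part which transcripts differ in chondrocytes that lack it.

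Type I interferons bind the receptor formed by Ifnar1 and Ifnar2, whose kinases Jak1 and Tyk2 phosphorylate Stat2. Phosphorylated Stat2 acts with Irf9 in the complex ISGF3, which binds the interferon-stimulated response element (ISRE) in the promoters of target genes. Interferon gamma signals through Ifngr1 and Ifngr2 and the kinases Jak1 and Jak2, and its target genes carry the gamma-activated sequence (GAS). The products of the target genes block viral entry, translation, replication or release, and some of them adjust the pathway itself.

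The samples were primary chondrocytes from femoral head cartilage of male mice aged 21 days. Of these, 3 came from homozygous *Postn*-/- mice carrying the germline allele Postn tm1Jmol and 3 from *wt* mice. The labels give the strain as B6/129, and the paper names the background as B6129SF2/J. The paper describes the mice as littermates from heterozygous crosses. The cells were kept for 2 days in serum-containing medium, and neither genotype received interferon, virus or another stimulus. The deletion was present in all cells of the mouse and not in chondrocytes alone. RNA was measured by single-end RNA sequencing of amplified cDNA, and p-values measure the spread among these 6 samples.

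The libraries held between 20587640 and 26572260 reads assigned to genes, so that 3 reads, the limit that a count of 0 allows, stood for 0.113 to 0.146 CPM (reads scaled to the library's total), for counting error only. All further CPM values were normalized by TMM, which rescales the totals of the tested genes. The targeted gene itself had 4.66, 4.27 and 5.67 CPM in the *Postn*-/- libraries, below the 10.1, 10.3 and 6.90 CPM of the *wt* libraries. The groups did not overlap (log2 fold change of -0.91 [95% CI = -1.42 to -0.39], adjusted p = 0.717 by edgeR's quasi-likelihood test). *Postn* reads thus remained in the *Postn*-/- libraries, and the gene-level count does not separate exons inside from exons outside the altered part of the allele. At the protein level, the paper reports no periostin staining in *Postn*-/- knee joints and negligible periostin in serum, and it genotyped the mice by PCR. Of 14533 genes tested, 2 passed an adjusted p of 0.05 (0.0138%), *Tm4sf1* with lower and *Dscaml1* with higher values in *Postn*-/-, both named after their values were seen. At an unadjusted p of 0.05, 916 genes passed (6.30%).

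The 10 chondrocyte markers, among them *Sox9*, *Col2a1* and *Acan*, were found in every library, with summed levels of 35030 to 46720 CPM in *Postn*-/- and 29770 to 42810 CPM in *wt*. *Col2a1* was the only marker of this list under an unadjusted p of 0.05 (log2 fold change of 0.68, adjusted p = 0.717, edgeR), beside 6.30% of all genes tested. The 12 macrophage markers, a cell type with high interferon responses, summed to 41.4 to 66.0 CPM in *Postn*-/- and 25.1 to 43.4 CPM in *wt*, and none of them was at 0 in any library. Of the 7 macrophage markers tested, 0 were under an unadjusted p of 0.05, beside the same 6.30%. All 7 had positive log2 fold changes, from 0.36 to 0.56 with a median of 0.44, against 50.8% positive among all genes tested. Markers of plasmacytoid dendritic cells and lymphocytes, without *Bst2*, summed to 0.964 to 1.72 CPM and 1.05 to 1.63 CPM, with *Cd79a* and *Nkg7* at 0 in at least 1 library. Fibroblast markers were higher, with sums of 2130 to 4417 CPM in *Postn*-/- and 2787 to 5248 CPM in *wt*. Osteoclast markers summed to 346 to 457 CPM and 315 to 416 CPM, of which *Ctsk* made up most. Endothelial markers summed to 5.1 to 7.5 CPM and 3.8 to 7.1 CPM, and erythroid markers to 0.0804 to 0.524 CPM and 0.269 to 0.407 CPM. The part of these cells in the levels below was not tested, and in bulk RNA fewer cells of a type and less RNA per cell cannot be told apart.

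The promoters are shown first because ISGF3 acts there. RefSeq promoter windows on GRCm38.p6, reaching from 250 bases before to 50 bases after the start site, were found for 8 of the 9 genes, all but *Usp18*. Printed are the 250 bases before the start site, 5′ to 3′ on the gene's strand, of *Ifit1*, the gene of the set with the smallest p-value, its chromosome 19 neighbour *Ifit3*, and *Isg15* and *Bst2*, which hold runs of overlapping matches. They lie at chr19:34640639-34640888 (plus strand), chr19:34583279-34583528 (plus strand), chr4:156200819-156201068 (minus strand) and chr8:71537473-71537722 (minus strand). Capitals mark matches to the ISRE core, searched on both strands as GAAA, any 2 bases and GAAA again, and therefore seen as TTTC, 2 bases and TTTC where the match lies on the other strand.
Ifit1: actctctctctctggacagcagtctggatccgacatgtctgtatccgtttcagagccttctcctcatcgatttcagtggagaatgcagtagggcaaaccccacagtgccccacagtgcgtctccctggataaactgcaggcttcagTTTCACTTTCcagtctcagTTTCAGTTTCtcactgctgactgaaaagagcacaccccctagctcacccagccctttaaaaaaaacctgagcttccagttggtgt
Ifit3: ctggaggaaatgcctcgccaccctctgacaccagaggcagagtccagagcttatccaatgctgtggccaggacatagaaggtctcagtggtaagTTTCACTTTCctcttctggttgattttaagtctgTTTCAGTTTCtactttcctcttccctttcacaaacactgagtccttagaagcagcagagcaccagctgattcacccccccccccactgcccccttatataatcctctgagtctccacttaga
Isg15: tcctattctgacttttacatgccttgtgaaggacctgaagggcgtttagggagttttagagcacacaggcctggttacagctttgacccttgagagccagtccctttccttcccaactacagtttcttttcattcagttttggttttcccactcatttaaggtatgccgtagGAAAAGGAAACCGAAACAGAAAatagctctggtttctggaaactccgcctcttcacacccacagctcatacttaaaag
Bst2: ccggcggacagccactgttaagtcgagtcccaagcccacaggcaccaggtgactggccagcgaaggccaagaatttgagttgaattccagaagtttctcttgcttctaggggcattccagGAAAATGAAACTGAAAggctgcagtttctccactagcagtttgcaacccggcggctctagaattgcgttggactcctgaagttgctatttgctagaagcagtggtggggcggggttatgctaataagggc

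The ISRE core was found in 6 of the 8 windows (75%), against 1131 of 32851 promoter windows of the same length (3.44%). *Ifit1* and *Ifit3* held the same pair of matches in the same order on the strand opposite the gene, GAAAGTGAAA and GAAACTGAAA when read on that strand. The pair began 104 and 85 bases before the start site in *Ifit1*, and 156 and 122 bases before it in *Ifit3*. In *Isg15*, 3 overlapping matches began 78, 72 and 66 bases before the start. *Bst2* held overlapping matches at 130 and 124 bases, *Rsad2* a single match at 120 bases and *Stat2* a single match at 222 bases. The letters were not found in the windows of *Irf7* and *Oasl2*. The GAS letters TTCNNNGAA, which read the same on both strands, were found in 1 of the 8 windows, that of *Bst2* at 136 bases, where they share bases with the ISRE core, and in 8.30% of all windows. In the wider interferon pathway described below, 49 of 137 windows held the ISRE core (35.8%) and 32 of 137 the GAS letters (23.4%). A match describes the sequence and does not show a bound site.

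**Figure D1:**
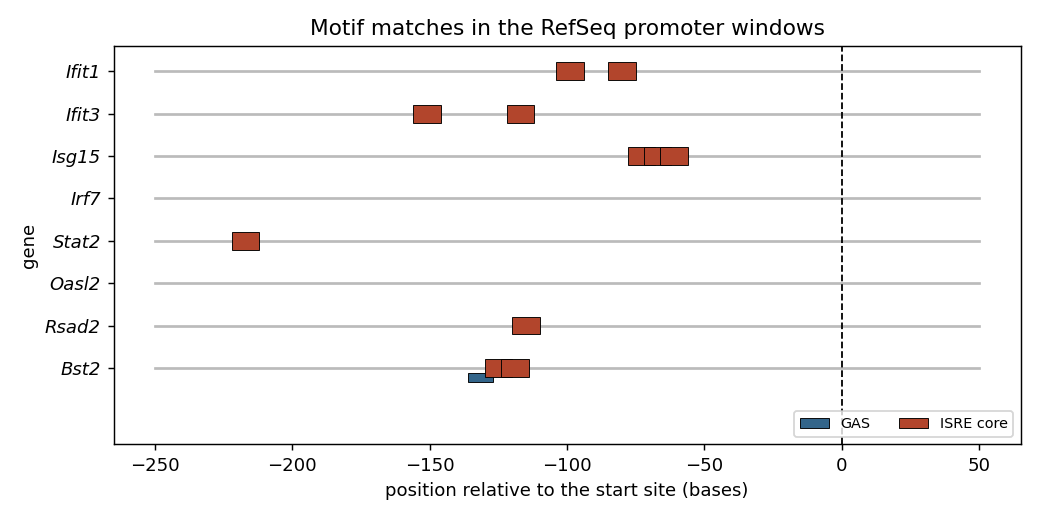
Matches to the ISRE core and the GAS letters in the RefSeq promoter windows of 8 interferon-stimulated genes, with the position in bases from the start site (dashed line) on the horizontal axis and a row per gene. All ISRE matches lie before the start site, from 222 bases in *Stat2* to 66 bases in *Isg15*, and *Irf7* and *Oasl2* have none.

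In both genotypes the 9 transcripts were low and spanned a wide range of levels per length. On the deposited RPKM scale, CPM without TMM divided by gene length in kilobases, *Bst2* was at 12.0 ± 0.724 and *Ifit3* at 10.4 ± 1.80 (SD over all 6 samples), and their ranges overlapped. Their order is uncertain, because 51.2% of the 50-base words of *Ifit3* also occur in *Ifit3b*. Reads that fit both genes were not counted, whereas the full gene length was divided by. *Stat2* followed at 4.19 ± 0.289 RPKM, below every *Ifit3* value and above every *Isg15* value. *Isg15* (2.07 ± 0.745 RPKM), *Usp18* (1.19 ± 0.380 RPKM), *Ifit1* (0.907 ± 0.334 RPKM) and *Irf7* (0.795 ± 0.148 RPKM) came next, each overlapping its neighbour in this order over all 6 samples. *Oasl2* (0.336 ± 0.0663 RPKM) and *Rsad2* (0.311 ± 0.135 RPKM) were lowest, overlapped each other and lay below every *Irf7* value. The order of the means was not the same in each genotype. *Ifit1* was above *Irf7* in *Postn*-/- (1.18 vs. 0.742 RPKM) and below it in *wt* (0.638 vs. 0.848 RPKM), and *Rsad2* was above *Oasl2* in *Postn*-/- (0.344 vs. 0.321 RPKM) and below it in *wt* (0.278 vs. 0.350 RPKM).

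The comparison of genotypes found no interferon-stimulated gene past the adjusted threshold. By edgeR's quasi-likelihood test, 0 of 9 passed an adjusted p of 0.05 and 1 of 9, *Ifit1*, an unadjusted p of 0.05, against 6.30% of all genes tested. *Ifit1* had the higher values in *Postn*-/- (3.95% of all genes passed in that direction), and 0 of 9 passed with lower values (2.35%). DESeq2 and voom also gave 0 adjusted and 1 unadjusted. *Ifit1* was also the 1 gene of the 9 whose groups did not overlap, against 13.6% of all genes tested. The log2 fold changes (*Postn*-/- over *wt*) were positive for 4 and negative for 5 of the genes, with a median of -0.032 beside 0.00415 over all genes. The levels that follow are in the same TMM-normalized CPM, with *Postn*-/- replicates 1, 2 and 3 given before *wt* replicates 1, 2 and 3.

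Of the transcription factors, *Stat2* (chromosome 10, 128270576 to 128292849, plus strand), the subunit that gives ISGF3 its transactivation domain, was at 19.3, 18.3 and 16.1 CPM in *Postn*-/- and 20.6, 18.2 and 18.8 CPM in *wt* samples. The 6 values lay close together and the groups overlapped. *Stat2* had a log2 fold change of -0.10 [95% CI = -0.40 to 0.20] and an adjusted p of 0.845 (edgeR), and without single libraries a log2 fold change of -0.16 to -0.033. *Irf7* (chromosome 7, 141262706 to 141266481, minus strand), the factor that amplifies interferon alpha transcription, was at 2.37, 2.03 and 2.33 CPM in *Postn*-/- and 2.77, 1.90 and 3.07 CPM in *wt* samples. The *Postn*-/- values lay inside the *wt* range. Its log2 fold change was -0.20 [95% CI = -0.78 to 0.39], with an adjusted p of 0.846 (edgeR), and -0.38 to -0.062 without single libraries. Exons of *Irf7* share 45 bases with *Phrf1* on the opposite strand, and whether reads were counted by strand is not given in the sources used here.

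Of the ubiquitin-like system, *Isg15* (chromosome 4, 156199424 to 156200818, minus strand) encodes the modifier that is attached to proteins after interferon, and it was at 1.04, 1.83 and 1.19 CPM in *Postn*-/- and 2.499, 1.81 and 1.05 CPM in *wt* samples. The *wt* samples alone spanned 2.37-fold from lowest to highest, and the groups overlapped. With 22 to 65 reads a library, the log2 fold change of -0.41 had a 95% CI of -1.28 to 0.47 (adjusted p = 0.7997, edgeR). It was -0.080 without *wt* replicate 1, the highest sample, -0.69 without *Postn*-/- replicate 2, -0.67 without *wt* replicate 3 and -0.12 with voomWithQualityWeights. *Usp18* (chromosome 6, 121245906 to 121270916, plus strand), the protease that removes Isg15 and also dampens signalling at Ifnar2, was at 1.77, 2.60 and 3.14 CPM in *Postn*-/- and 1.92, 1.45 and 1.77 CPM in *wt* samples. *Postn*-/- replicates 2 and 3 were above all *wt* samples, whereas replicate 1 lay among them. *Usp18* had a log2 fold change of 0.54 [95% CI = -0.12 to 1.197] and an adjusted p of 0.717 (edgeR). Without *Postn*-/- replicate 1 it was 0.74, under the unadjusted threshold, with an adjusted p of 0.772, and without *Postn*-/- replicate 3 it was 0.35 with an adjusted p of 0.983. Exons of *Usp18* share 124 bases with *Gm44148* on the opposite strand.

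Of the RNA-binding effectors, *Ifit1* (chromosome 19, 34640871 to 34650009, plus strand), which binds RNA lacking the cap marks of host transcripts, had the highest fold change of the 9 genes. It was at 2.45, 3.42 and 3.48 CPM in *Postn*-/- (61, 84 and 73 reads) and at 1.73, 1.72 and 1.68 CPM in *wt* samples (45, 38 and 35 reads). Each *Postn*-/- sample was above each *wt* sample. The *wt* samples were nearly equal, closer together than the counting error of 35 to 45 reads a library. Their small SD may therefore understate the spread among *wt* samples. The group means were 3.12 ± 0.576 vs. 1.71 ± 0.0280 CPM (SD, n = 3), a fold change of 1.82 on the fitted scale. The log2 fold change was 0.86 [95% CI = 0.32 to 1.41], and the adjusted p of 0.717 (edgeR) did not pass the threshold. Of the 50-base words of *Ifit1* transcripts, 7.14% also occur in other genes, nearly all in *Ifit1bl2*.

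*Ifit3* (chromosome 19, 34583531 to 34588731, plus strand), which encodes a further tetratricopeptide repeat protein of the Ifit family, had overlapping groups. It was at 18.5, 22.4 and 17.9 CPM in *Postn*-/- and 20.5, 13.4 and 17.0 CPM in *wt* samples. The group means of 19.6 ± 2.44 and 17.0 ± 3.55 CPM (SD, n = 3) lay within the spread of the samples. For *Ifit3* the log2 fold change was 0.20 [95% CI = -0.22 to 0.63], with an adjusted p of 0.786 (edgeR). It was 0.062 without *wt* replicate 2, 0.096 without *Postn*-/- replicate 2 and 0.37 without *wt* replicate 1. A share of 51.2% of the 50-base words of *Ifit3* occurs also in *Ifit3b*. Reads that fit both genes were therefore dropped by unique counting, and the level is uncertain. *Ifit3b* itself was at 6.83, 4.56 and 7.43 CPM in *Postn*-/- and 8.73, 2.58 and 4.70 CPM in *wt* samples (log2 fold change of 0.23, adjusted p = 0.897, edgeR). The difference between the *Ifit1* and *Ifit3* fold changes was not tested.

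*Oasl2* (chromosome 5, 114896936 to 114912234, plus strand), of the oligoadenylate synthetase family that senses double-stranded RNA, was at 1.08, 1.51 and 1.14 CPM in *Postn*-/- and 1.12, 1.31 and 1.68 CPM in *wt* samples. The groups overlapped at 24 to 37 reads a library. Its log2 fold change was -0.13 [95% CI = -0.78 to 0.53] with an adjusted p of 0.917 (edgeR). It was 0.039 without *wt* replicate 3 and -0.29 without *Postn*-/- replicate 2.

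Of the membrane-associated effectors, *Bst2* (chromosome 8, 71534264 to 71537437, minus strand) encodes tetherin, which holds budding virions at the cell surface. It was at 10.2, 8.70 and 8.53 CPM in *Postn*-/- and 9.996, 8.73 and 9.30 CPM in *wt* samples, the most even of the 9 genes. The genotypes differed by a log2 fold change of -0.032 [95% CI = -0.39 to 0.33], with an adjusted p of 0.966 (edgeR). Without single libraries it ranged from -0.12 to 0.020. *Rsad2* (chromosome 12, 26442753 to 26456452, minus strand) encodes viperin, an enzyme that makes a chain-terminating nucleotide. It was at 0.964, 1.10 and 2.38 CPM in *Postn*-/- and 0.961, 1.09 and 1.58 CPM in *wt* samples. *Postn*-/- replicate 3, with 50 reads, was above the other libraries, and *Postn*-/- replicates 1 and 2 were among the *wt* values. *Rsad2* had a log2 fold change of 0.29 [95% CI = -0.67 to 1.24] and an adjusted p of 0.865 (edgeR). Without *Postn*-/- replicate 3 it was -0.22 with an adjusted p of 0.983.

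**Figure D2:**
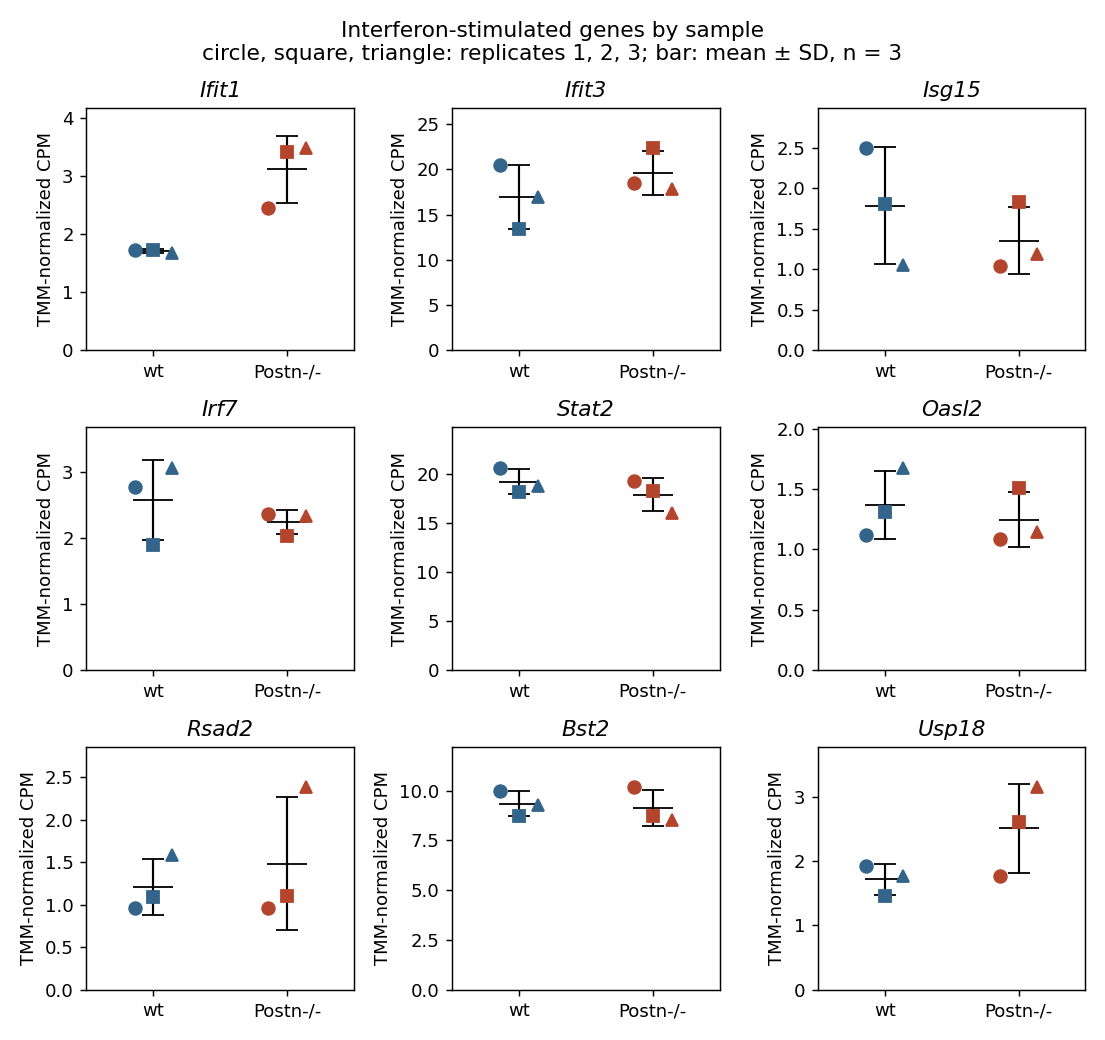
TMM-normalized CPM of the 9 interferon-stimulated genes, with a panel per gene, *wt* samples in blue and *Postn*-/- samples in red, and bars for the mean ± SD (n = 3). The *Ifit1* panel alone has all *Postn*-/- samples (2.45 to 3.48 CPM) above all *wt* samples (1.68 to 1.73 CPM), and the single high *Rsad2* sample is *Postn*-/- replicate 3 at 2.38 CPM.

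**Figure D3:**
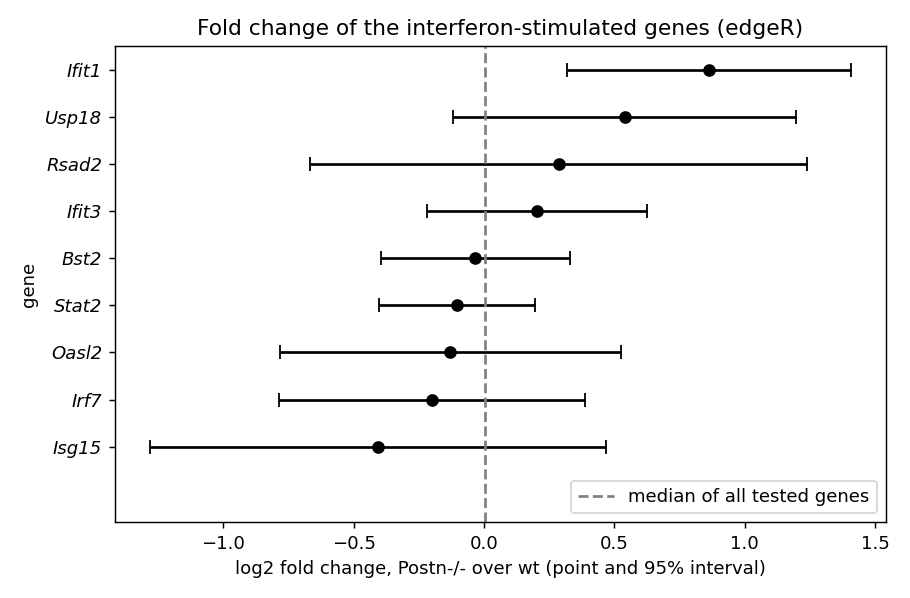
Log2 fold changes (*Postn*-/- over *wt*) of the 9 genes with 95% confidence intervals from edgeR, ordered by size, and the median of all tested genes as a dashed line. The values run from -0.41 for *Isg15* to 0.86 for *Ifit1*, and only the *Ifit1* interval leaves out 0 before adjustment over all genes.

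The genes did not move as a block across the samples. After centring each gene's log2 CPM on its own mean, the mean of the 9 genes was -0.11, 0.13 and 0.14 in *Postn*-/- and 0.037, -0.18 and -0.016 in *wt* samples, and these ranges overlapped. Pearson correlations over the 6 samples, which share the genotype contrast and the library totals, had a median of -0.059 over the 36 pairs of genes, and 16 of them were positive. The highest correlations were those of *Ifit1* with *Usp18* (0.87) and of *Stat2* with *Bst2* (0.83), and the lowest was that of *Stat2* with *Rsad2* (-0.83). The SD over the 6 samples ranged from 0.11 for *Bst2* and 0.12 for *Stat2* to 0.48 for *Ifit1* and 0.49 for both *Isg15* and *Rsad2* on the log2 scale. *Postn*-/- replicate 3 held the highest value of 3 genes and the lowest of 2, and *wt* replicate 2 the highest of 0 and the lowest of 3.

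**Figure D4:**
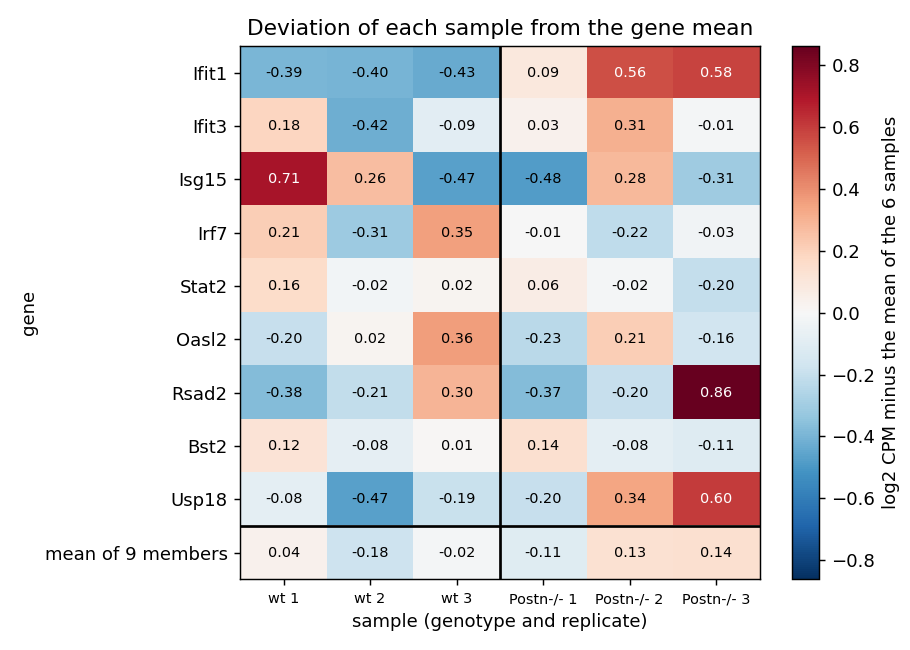
Gene-centred log2 CPM of the 9 genes (rows) in the 6 samples (columns), with the mean of the 9 genes as the last row. *Isg15* is highest in *wt* replicate 1 (0.71) and *Rsad2* in *Postn*-/- replicate 3 (0.86), and the mean row stays between -0.18 and 0.14.

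The 10 genes outside the set whose levels followed this mean pattern most closely were *Pik3r6*, *Ugt2b36*, *Abcb1b*, *Rap2b*, *Hmga1*, *Itga8*, *Dglucy*, *Mpp1*, *Dmp1* and *Nmnat2*, with Pearson correlations of 0.99 over the 6 samples for the first and the last. Of these 10 genes, 0 were in the wider interferon lists. With 6 points chosen from among all genes tested, such values are a description.

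The wider pathway was read from 148 further genes in lists by role, of which 146 were matched in the tables and 91 were tested. By edgeR 0 of 91 passed an adjusted p of 0.05, and 3 passed an unadjusted p of 0.05, all with higher values in *Postn*-/- (*Ifngr2*, *Jak2* and *Tap1*), against 3.95% of all genes tested in that direction. The unadjusted count was 9 with voomWithQualityWeights and surrogate variables, where 1882 of all 14533 genes passed. It was 6 without *Postn*-/- replicate 2 (1104 of all genes) and 2 without *Postn*-/- replicate 3 (425 of all genes). The fold changes were positive for 50 and negative for 41, with a median log2 of 0.015. The groups did not overlap in 5 genes, all higher in *Postn*-/-, against 7.03% of all genes in that direction, and in 0 genes with lower values, against 6.57%. The 5 were *Ifnar1*, *Ifnar2*, *Jak2*, *Tap1* and *Phf11d*, the last named after its values were seen.

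Of the 21 interferon ligands listed, 0 passed the filter on low counts, and the highest count of any of them in any library was 9 reads. *Ifnb1*, encoding interferon beta, had 8, 9 and 1 reads in *Postn*-/- and 1, 0 and 6 reads in *wt* samples. The levels of the ligands were therefore near the limit that these depths can show.

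Of the 6 receptor genes, 5 were tested, and *Ifnlr1*, which encodes the interferon lambda receptor and is named after its values were seen, had 5 to 19 reads and was not. The 5 tested had positive fold changes with a median log2 of 0.16, against 50.8% positive among all genes tested. Of these, *Ifnar1*, *Ifnar2*, *Ifngr2* and *Il10rb* are neighbours on chromosome 16, between 91372783 and 91565169. *Ifnar1* was at 39.2, 42.7 and 38.8 CPM in *Postn*-/- and 33.1, 38.7 and 36.4 CPM in *wt* samples (log2 fold change of 0.16, adjusted p = 0.737, edgeR). *Ifnar2* was at 21.9, 24.7 and 22.7 CPM in *Postn*-/- and 18.4, 20.4 and 19.4 CPM in *wt* samples (0.25, adjusted p = 0.717, edgeR). Both chains of the type I receptor thus had all *Postn*-/- values above all *wt* values without passing the unadjusted threshold. Of all genes tested, 7.03% separated in that direction, and for *Ifnar1* the nearest values were 38.84 CPM in *Postn*-/- and 38.73 CPM in *wt*. *Ifngr2* was at 65.9, 58.8 and 74.3 CPM in *Postn*-/- and 52.7, 45.1 and 60.0 CPM in *wt* samples, which overlapped (0.33 [95% CI = 0.010 to 0.66], adjusted p = 0.717, edgeR). For *Ifngr1*, the ligand-binding chain of the interferon gamma receptor, the log2 fold change was 0.065 (adjusted p = 0.868, edgeR).

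Among the transducers, *Jak2* was at 14.6, 15.9 and 17.7 CPM in *Postn*-/- and 10.96, 13.7 and 11.7 CPM in *wt* samples, with no overlap (log2 fold change of 0.41 [95% CI = 0.061 to 0.76], adjusted p = 0.717, edgeR). The kinases of the type I receptor had log2 fold changes of 0.046 for *Jak1* (adjusted p = 0.922, edgeR) and -0.13 for *Tyk2* (adjusted p = 0.825). *Irf9*, the DNA-binding subunit of ISGF3, overlapped between the genotypes. It was at 18.5, 18.8 and 20.4 CPM in *Postn*-/- and 26.0, 20.5 and 19.2 CPM in *wt* samples (-0.19, adjusted p = 0.760, edgeR). Of the 5 interferon regulatory factors tested, 0 were under an unadjusted p of 0.05, beside 6.30% of all genes, with *Irf1* at a log2 fold change of -0.23 (adjusted p = 0.827) and *Irf3* at 0.064 (adjusted p = 0.898).

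Of the other antiviral effectors, 37 of 57 were tested and 0 were under an unadjusted p of 0.05, against 6.30% of all genes tested, with log2 fold changes from -0.61 to 0.92. *Ifit2*, a further gene of the *Ifit* family, was at 23.6, 26.7 and 18.1 CPM in *Postn*-/- and 39.3, 17.4 and 23.0 CPM in *wt* samples, where *wt* replicate 1 was highest (-0.22, adjusted p = 0.852, edgeR). *Mx1*, which encodes a GTPase that traps viral nucleocapsids, had at most 5 reads in a library and was not tested. The 3 genes of Isg15 conjugation (*Uba7*, *Ube2l6* and *Herc6*) had log2 fold changes of -0.13, -0.21 and 0.085. Of the sensors and adaptors 11 of 14 were tested, of the negative regulators 4 of 5, and of the guanylate-binding and immunity-related GTPases 6 of 13, with 0 under an unadjusted p of 0.05 in each, where lists of this size would hold few or none at the 6.30% of all genes. *Socs1*, an inhibitor of Jak kinases, had 5 to 22 reads and was not tested. Of the interferon-induced chemokines 3 of 4 were tested and 0 were under an unadjusted p of 0.05, beside 6.30% of all genes. *Cxcl10* had a log2 fold change of -0.36 (SE 0.62, adjusted p = 0.890). *Ccl5*, named after its values were seen, had 1.11 (SE 0.79, adjusted p = 0.740), with overlapping groups.

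In antigen presentation 12 of 13 genes were tested and *Tap1*, which encodes a subunit of the peptide transporter, was the 1 under an unadjusted p of 0.05, with higher values in *Postn*-/-, against 3.95% of all genes tested in that direction. It was at 16.7, 17.9 and 16.1 CPM in *Postn*-/- and 13.4, 10.04 and 12.2 CPM in *wt* samples, with no overlap. *Tap1* had a log2 fold change of 0.51 [95% CI = 0.16 to 0.86] and an adjusted p of 0.717 (edgeR). The median log2 fold change of the 12 genes was 0.032.

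**Figure D5:**
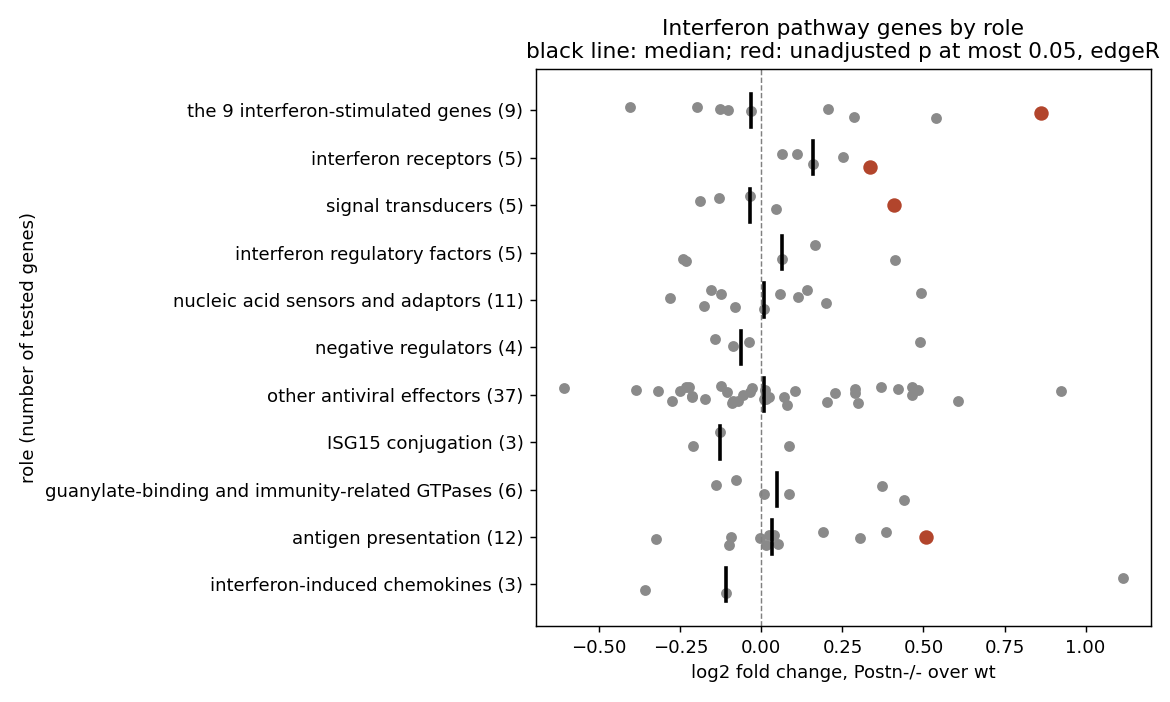
Log2 fold changes (*Postn*-/- over *wt*, edgeR) of the 9 interferon-stimulated genes and of the 91 tested genes of the wider pathway, grouped by role. The points lie on both sides of 0 in each group except the receptors, where all 5 are positive with a median of 0.16, beside 50.8% positive among all genes tested.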

How the data were processed

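RNA from 3 *Postn*-/- and 3 *wt* chondrocyte samples, grouped by the genotype in the labels, was amplified with the SMARTer Ultra Low kit and sequenced in single-end runs. Per the labels and the methods, the authors aligned reads with STAR 2.0.4b and counted uniquely aligned reads per Ensembl gene with featureCounts 1.4.5. The authors deposited raw counts, CPM (counts divided by the library's total) and RPKM (CPM per kilobase of gene length). The submitters' notes list mm9, whereas the coordinates in the files are those of GRCm38, which is used here. Of the 41388 genes, 97.5% were matched to GENCODE M21.

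Counts were tested with edgeR 4.0.16 (R 4.3.3): ribosomal RNA genes (355) were left out, genes above 1 CPM in at least 2 samples were kept (14533), TMM factors were applied, and the quasi-likelihood test of *Postn*-/- against *wt* was adjusted by Benjamini-Hochberg over all genes. The code was checked on simulated data. Log2 CPM for patterns used a prior count of 2. Alternatives were a replicate block, other scalings, filters and a robust fit, DESeq2 1.42.0, limma 3.58.1 voomWithQualityWeights alone or combined with 2 surrogate variables from sva 3.50.0, and leaving out each library. The study's own methods used voomWithQualityWeights with surrogate variables.

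By rule, the genes described were the 9 named ones, 16 pathway genes chosen by role (1 of them is not reported here), every pathway gene under an unadjusted p of 0.05, *Postn*, and the 10 genes with the most similar pattern. Cell type markers came from fixed lists, the role lists of receptors and Isg15 conjugation were given by name, and *Tm4sf1*, *Dscaml1*, *Phf11d*, *Ifnlr1* and *Ccl5* were named after their values were seen. Members and lists were chosen with earlier results of these data known. Motif matches were searched in RefSeq promoter windows, and shared 50-base words in GENCODE transcripts.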

Additional observations from a re-analysis of the deposited data

How the results depend on the processing

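Under the 15 alternatives, 0 of the 9 genes and 0 of the wider pathway passed an adjusted p of 0.05. *Ifit1* kept its direction and an unadjusted p under 0.05 in all 15 (log2 fold change of 0.84 to 0.88, 0.78 to 1.01 without single libraries, adjusted p of 0.315 to 0.983). Of the 9 genes, 1 to 2 passed the unadjusted threshold without single libraries, the 2 being *Ifit1* and *Usp18* without *Postn*-/- replicate 1. Without single libraries the log2 fold change ranged from -0.69 to -0.080 for *Isg15*, from 0.062 to 0.37 for *Ifit3*, from -0.38 to -0.062 for *Irf7*, from -0.16 to -0.033 for *Stat2*, from 0.35 to 0.74 for *Usp18*, from -0.29 to 0.039 for *Oasl2* (positive without *wt* replicate 3), from -0.22 to 0.52 for *Rsad2* and from -0.12 to 0.020 for *Bst2* (positive without *Postn*-/- replicate 2, *Postn*-/- replicate 3 or *wt* replicate 1), and the median of the 9 genes from -0.078 to 0.039. *Rsad2* gave no value with the filter of 1 CPM in all 6 samples. Wider pathway genes under the unadjusted threshold numbered 9 of 91 with surrogate variables, beside 1882 of all 14533 genes tested. Without single libraries they numbered 2 to 6. They were 5 without *Postn*-/- replicate 1 (868 of all 14428 genes), 6 without *Postn*-/- replicate 2 (1104 of 14277) and 5 without *wt* replicate 3 (878 of 14309). Over all genes, those past the adjusted threshold numbered 1 with upper quartile scaling, 1 with voom, 3 with surrogate variables added to voom, 10 with DESeq2, 9 without a filter, 0 with 1 CPM required in all 6 samples and 1 to 2 without single libraries (1 each time that *Postn*-/- replicate 1, 2 or 3 or *wt* replicate 1 or 2 was left out). *Tm4sf1* kept its call wherever it was tested, and *Dscaml1* lost it under the replicate block, upper quartile scaling, both voom fits and without each single library. Genes past the unadjusted threshold numbered 1882 with surrogate variables, 1797 without a filter and 425 to 1257 without single libraries, the 425 without *Postn*-/- replicate 3. The cause of these shifts was not tested.

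With a replicate block the adjusted count over all genes was 1. The unadjusted count under the block was 5 of 91 in the wider pathway, beside 1188 of all 14533 genes tested (916 without the block). The correlations of same-numbered samples were 0.0824, 0.155 and 0.143, with 1 pair under 0.1. The paper describes the mice as littermates but ties no replicate number to a litter, and the labels give no shared litter or day. Pairing by number was therefore not established, although each sample correlated best with its own number, a hint from the data and not from the design. Counts were lowest for *Isg15*, *Oasl2*, *Rsad2*, *Usp18*, *Ifit1* and *Irf7*, with 22 to 84 reads a library, and for the ligands.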
